A study of Homo sapiens with 24 samples.

Results

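The change in RUVBL1 enrichment with CB-6644, an inhibitor of the RUVBL1/2 ATPases, was measured by RNA immunoprecipitation sequencing in HCT116 cells, a human colorectal carcinoma line in which CRISPR/Cas9 editing had put GFP on RUVBL1. RNA recovered on beads carrying an anti-GFP binder (GFP beads) was set against RNA recovered on agarose beads without it (uncoupled beads). The change was the log2 ratio of GFP over uncoupled beads in cells given CB-6644 at 0.5 µM for 16 h, minus the same log2 ratio in untreated cells. Each of these 4 bead and treatment groups had 2 libraries, so 8 of the 24 libraries of the series entered it, and all 4 groups carried the same knock-in. The labels do not say whether the line was 1 clone or whether replicates came from separate cultures, and the p-values cover no more than library-to-library spread, possibly technical. The other 8 RUVBL1 libraries came from the same groups with puromycin, which releases nascent chains from ribosomes, at 100 µg/mL for 30 min, and 8 more came from a GFP-RPAP3 line. Of 28307 genes in the count table, 15976 passed a filter on low counts and were tested.

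RUVBL1 and RUVBL2 are AAA+ ATPases that form a ring. With RPAP3 and PIH1D1 they make up the R2TP co-chaperone, which works with HSP90 to assemble RNA polymerases, PIKK kinases, the U5 snRNP and the box C/D snoRNP. They are also subunits of the INO80, SRCAP and TIP60 chromatin remodelling complexes. An mRNA can come down with a chaperone when the protein is gripped while still being made, and puromycin separates such nascent chains from their mRNA. A small nucleolar RNA (snoRNA) can come down as part of a particle under assembly.

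CB-6644 changed RUVBL1 enrichment of 30 genes at an adjusted p under 0.05, which is 0.188% of the genes tested (edgeR's quasi-likelihood test with Benjamini-Hochberg adjustment). Of these, 22 rose (0.138%) and 8 fell (0.0501%). The 22 gains were 9 box C/D snoRNAs, 5 scaRNAs (small Cajal body-specific RNAs) and 8 mRNAs, and all 8 losses were mRNAs. The median change over all genes tested was 0.04 on the log2 scale, with quartiles of -0.41 and 0.58. At an unadjusted p under 0.05 there were 1878 genes.

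Taken by bead, CB-6644 changed 174 genes on GFP beads (1.09% of those tested), 101 higher (0.632%) and 73 lower (0.457%). On uncoupled beads it changed 0 genes by edgeR's adjusted p, 860 at an unadjusted p under 0.05, and 7 by DESeq2. Levels below are counts scaled to a common library size (CPM) that take account of depth and TMM factor, and enrichments and their changes are on the log2 scale with a standard error (SE) from the fit to all 16 RUVBL1 libraries.

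In all, 3 libraries of the RUVBL1 line stood apart. CB-6644 GFP replicate 2 had the fewest counts of the contrast (9019665, against up to 25146984) and lay at 110.5 on the first principal component (24.4% of the variance). Replicate 1 of the GFP beads under CB-6644 with puromycin lay at 71.98 on it. Untreated uncoupled replicate 2 lay at -89.4 on the next component (15.2%). Summed markers of blood, stromal and liver cells, with 7 of 14 tested, were 20.8 and 45.3 CPM on GFP beads after CB-6644, 18.5 and 17.8 CPM on uncoupled beads after CB-6644, and 15.0 to 23.9 CPM in the 4 untreated libraries. COL1A1 supplied 34.7 of the 45.3 CPM, while HBB was at 0 in all 8 libraries, and the part of these markers in the results was not tested. Colon epithelial genes, with 13 of 18 tested, summed to 3809 to 5444 CPM in the same 8 libraries, although VIL1 was at 0 in 6 of them. Keratins gave much of that sum, with KRT8 alone at 1551 to 2445 CPM, against 21.68 to 33.87 CPM for CDX2.

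The number of genes called depended on single libraries. A fit that left out a library kept 1 library in its group, which then adds nothing to the estimate of spread. Counts from such fits, here and below, are therefore no better founded than the 30. It was 64 without CB-6644 GFP replicate 2 and 113 without untreated uncoupled replicate 2. It was 1506 without CB-6644 GFP replicate 1, with 564 higher and 942 lower, and 44 without untreated GFP replicate 2, with 19 higher and 25 lower, so that losses outnumbered gains in both. It was 20 without CB-6644 uncoupled replicate 1, the lowest value. With both of the contrast's libraries that stood apart left out, the median change over all genes tested was -0.08. Fitted on the 8 libraries of the contrast alone, 11 genes were called, all 11 of them higher. In that fit all 8 losses missed the threshold (adjusted p = 0.0917 to 0.355). The other 11 gains missed it too, namely SCAF4, SCAF8, RPRD2, CHTOP, NIN, SCARNA17, SNORD22, SNORD29, SNORD58A, SNORD89 and SNORD135 (adjusted p = 0.0545 to 0.347). Of the 30 genes, 14 kept their call without each of the 8 libraries in turn.

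Box C/D snoRNAs and scaRNAs made up the largest group of gains. Box C/D snoRNAs guide ribose methylation of ribosomal RNA and carry the core proteins SNU13, NOP56, NOP58 and fibrillarin. scaRNAs guide modification of spliceosomal RNAs in Cajal bodies and can carry box C/D, box H/ACA or both. Box H/ACA snoRNAs guide pseudouridylation and carry a different core, with dyskerin.

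SNORD15B (11:75404421-75404566) was at 1016 and 1674 CPM on GFP beads after CB-6644, 25.3 and 24.3 CPM on uncoupled beads after CB-6644, 14.1 and 17.0 CPM on untreated GFP beads, and 8.95 and 4.73 CPM on untreated uncoupled beads. Both CB-6644 GFP libraries were far above the other 6, which ran from 4.73 to 25.3 CPM and were higher after CB-6644 than in untreated cells on uncoupled beads. Its enrichment was 5.76 ± 0.41 after CB-6644 and 1.15 ± 0.37 in untreated cells, so that the ratio of GFP to uncoupled beads rose 24.5-fold (log2 4.62 ± 0.52, adjusted p = 4.18e-05). Positions here and below are those of GRCh38.p14.

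SNORD17 (20:17962710-17962946) was at 299.5 and 1108 CPM on GFP beads after CB-6644, 9.27 and 8.70 CPM on uncoupled beads after CB-6644, 12.1 and 13.5 CPM on untreated GFP beads, and 16.9 and 12.3 CPM on untreated uncoupled beads. It had no GFP excess in untreated cells (-0.21 ± 0.61) and a rise of 6.50 ± 0.91 with CB-6644 (adjusted p = 0.0204). The 2 CB-6644 GFP libraries differed from each other by more than SNORD15B did, and the call was lost without any 1 of 5 other libraries (both untreated GFP libraries, untreated uncoupled replicate 1 and both CB-6644 uncoupled libraries; adjusted p = 0.139 to 0.272).

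SNORD22, SNORD27 and SNORD29 lie in introns of 1 gene, SNHG1, on chromosome 11. SNORD22 was at 146.6 and 599.8 CPM on GFP beads after CB-6644, 4.16 and 4.15 CPM on uncoupled beads after CB-6644, 5.33 and 9.13 CPM on untreated GFP beads, and 3.74 and 4.34 CPM on untreated uncoupled beads. SNORD27 was at 11.8 and 32.9 CPM on GFP beads after CB-6644 and at most 1.75 CPM in the other 6 libraries. SNORD29 was at 11.6 and 41.2 CPM there and at most 2.70 CPM in the other 6. All 3 were highest in the CB-6644 GFP libraries, with rises of 5.63 ± 0.76, 5.42 ± 0.79 and 4.85 ± 0.92 (adjusted p = 0.00818, 0.00114 and 0.0235). SNHG1 itself had a change of 0.97 ± 0.32 that did not pass (adjusted p = 0.268). The SNORD22 call was lost without untreated GFP replicate 1, untreated uncoupled replicate 1 or either CB-6644 uncoupled library (adjusted p = 0.064 to 0.165). The SNORD27 call was lost without untreated uncoupled replicate 1 (adjusted p = 0.085), and the SNORD29 call without any 1 of 5 libraries, namely the 4 untreated ones and CB-6644 uncoupled replicate 1 (adjusted p = 0.0745 to 0.18).

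SNORD2, SNORD58A and SNORD89 also rose, from low levels. SNORD2 was at 6.92 and 7.03 CPM on GFP beads after CB-6644, 0.191 and 0.312 CPM on uncoupled beads after CB-6644, 2.65 and 1.64 CPM on untreated GFP beads, and 2.61 and 2.46 CPM on untreated uncoupled beads. Its rise of 4.99 ± 0.75 (adjusted p = 0.00123) thus came from both arms, being a change of 1.70 on GFP beads and of -3.30 on uncoupled beads, neither of which passed alone. SNORD89 was at 9.89 and 17.3 CPM on GFP beads after CB-6644 and at most 0.478 CPM in the other 6 libraries (5.30 ± 0.83, adjusted p = 0.0018). SNORD58A was at 13.5 and 58.6 CPM on GFP beads after CB-6644 and at most 2.22 CPM in the other 6 (4.77 ± 0.78, adjusted p = 0.0051), and lost its call without untreated uncoupled replicate 1 (adjusted p = 0.262). SNORD135 had 44 and 101 counts on GFP beads after CB-6644, 0 and 0 on uncoupled beads after CB-6644, 2 and 1 on untreated GFP beads, and 8 and 1 on untreated uncoupled beads. With 3 counts in place of the 0 of the CB-6644 uncoupled group as a whole, its change came to 8.13, which was not itself tested. The call came from the edgeR fit to the counts as they were, with a change of 11.68 (adjusted p = 0.0107). That call was lost without untreated GFP replicate 1, untreated uncoupled replicate 1 or CB-6644 uncoupled replicate 1 (adjusted p = 0.0505 to 0.441).

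**Figure D1:**
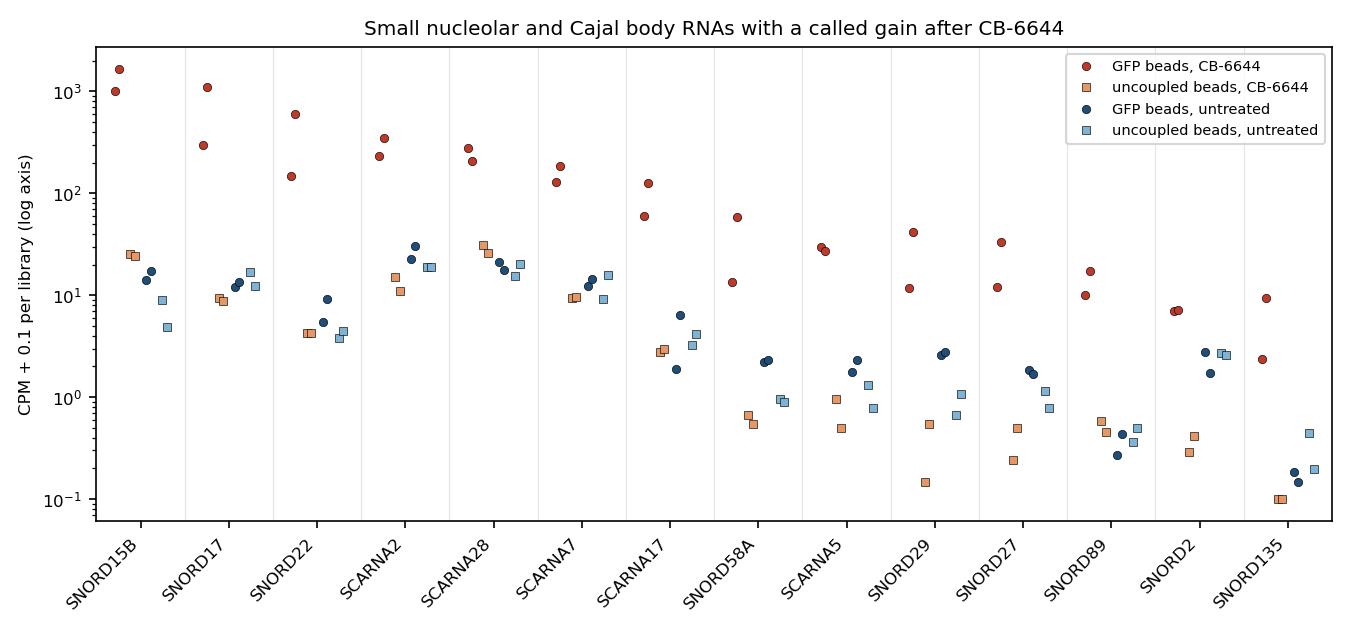
Level of the 14 small RNAs with a called gain in each of the 8 libraries of the contrast, as CPM plus 0.1 on a log axis; red circles are GFP beads and orange squares uncoupled beads after CB-6644, dark blue circles GFP beads and light blue squares uncoupled beads from untreated cells. For every RNA shown both red points lie above the other 6, as for SNORD15B at 1016 and 1674 CPM.

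Of the scaRNAs, 5 rose. SCARNA2 (1:109100193-109100612), which lies inside no other tested gene, was at 232 and 349.5 CPM on GFP beads after CB-6644, 15.0 and 10.8 CPM on uncoupled beads after CB-6644, 22.8 and 30.5 CPM on untreated GFP beads, and 18.9 and 18.8 CPM on untreated uncoupled beads. Its ratio rose 16.0-fold (4.00 ± 0.39, adjusted p = 6.28e-06). SCARNA7 was at 128 and 185 CPM on GFP beads after CB-6644, 9.22 and 9.59 CPM on uncoupled beads after CB-6644, 12.2 and 14.3 CPM on untreated GFP beads, and 9.04 and 15.8 CPM on untreated uncoupled beads (3.94 ± 0.40, adjusted p = 8.23e-06). SCARNA28 was at 280.3 and 209 CPM on GFP beads after CB-6644, 31.0 and 26.0 CPM on uncoupled beads after CB-6644, 21.2 and 17.7 CPM on untreated GFP beads, and 15.3 and 20.1 CPM on untreated uncoupled beads (2.96 ± 0.34, adjusted p = 4.18e-05). These 3 had no called enrichment in untreated cells, at 0.49, 0.11 and 0.15. SCARNA17 was at 59.1 and 125.5 CPM on GFP beads after CB-6644, against at most 6.23 CPM in the other 6 libraries (4.87 ± 0.62, adjusted p = 0.000991). SCARNA5 was at 29.4 and 26.9 CPM on GFP beads after CB-6644, against at most 2.22 CPM in the other 6 (4.54 ± 0.68, adjusted p = 0.00123), and lost its call without untreated uncoupled replicate 1 (adjusted p = 0.165).

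Of the other scaRNAs, SCARNA10 and SCARNA12, named after their values were seen, had a like pattern without passing. SCARNA10 was at 125 and 141 CPM on GFP beads after CB-6644, 8.69 and 2.54 CPM on uncoupled beads after CB-6644, 12.1 and 9.71 CPM on untreated GFP beads, and 6.78 and 3.06 CPM on untreated uncoupled beads (3.48 ± 0.72, adjusted p = 0.107). SCARNA12 was at 157 and 138.5 CPM on GFP beads after CB-6644, 11.6 and 6.203 CPM on uncoupled beads after CB-6644, 5.16 and 15.1 CPM on untreated GFP beads, and 9.08 and 5.52 CPM on untreated uncoupled beads (3.62 ± 0.80, adjusted p = 0.155). In both, the GFP libraries after CB-6644 were near each other and above all 6 others.

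Summed over all 357 box C/D snoRNAs in the table, the level was 2791 and 7210 CPM on GFP beads after CB-6644, 145.6 and 137 CPM on uncoupled beads after CB-6644, 202 and 315 CPM on untreated GFP beads, and 151 and 137 CPM on untreated uncoupled beads. Summed over all 29 scaRNAs, it was 1112 and 1257 CPM on GFP beads after CB-6644, 94.1 and 71.4 CPM on uncoupled beads after CB-6644, 95.4 and 119 CPM on untreated GFP beads, and 79.0 and 82.9 CPM on untreated uncoupled beads. Both sums were far higher in each CB-6644 GFP library than in the other 6. The 182 box H/ACA snoRNAs behaved otherwise. Their sum was 61.6 and 956 CPM on GFP beads after CB-6644, 130.2 and 103 CPM on uncoupled beads after CB-6644, 131 and 189 CPM on untreated GFP beads, and 173 and 259.7 CPM on untreated uncoupled beads. Only the GFP library after CB-6644 that stood apart was high, and its replicate was the lowest of the 8.

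Because many of these RNAs passed the filter only where they were high, members were also counted among those that would have passed without any GFP library after CB-6644. Of 134 box C/D snoRNAs tested, 88 met this, of which 87 had a change above 0 and 8 were called, with a median of 3.72. Of 17 scaRNAs tested, 15 met it, of which 14 were above 0 and 5 were called, with a median of 3.23. Over all genes tested, 8311 of 15976 had a change above 0, 0.138% were called higher and the median was 0.04. Without CB-6644 GFP replicate 2, 84 of the 88 box C/D snoRNAs were above 0, with a median of 2.91, and the scaRNA median was 3.14. Of 79 box H/ACA snoRNAs tested, 68 met the condition. Of these, 62 were above 0 and 0 were called, with a median of 2.29. Without CB-6644 GFP replicate 2, 16 were above 0 and the median was -0.86.

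SNORA73A and SNORA73B, box H/ACA snoRNAs named after their values were seen, show this at single genes. SNORA73A was at 5.13 and 184 CPM on GFP beads after CB-6644, 18.4 and 7.10 CPM on uncoupled beads after CB-6644, 9.09 and 12.8 CPM on untreated GFP beads, and 19.1 and 13.7 CPM on untreated uncoupled beads. SNORA73B was at 3.49 and 125 CPM on GFP beads after CB-6644, 20.5 and 5.71 CPM on uncoupled beads after CB-6644, 17.5 and 18.0 CPM on untreated GFP beads, and 21.8 and 14.3 CPM on untreated uncoupled beads. For each, 1 CB-6644 GFP library was the highest of the 8 and the other the lowest. Their changes of 3.48 ± 2.16 and 2.32 ± 2.23 did not pass (adjusted p = 0.535 and 0.694), and turned to -0.72 and -1.88 without the library that stood apart.

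**Figure D2:**
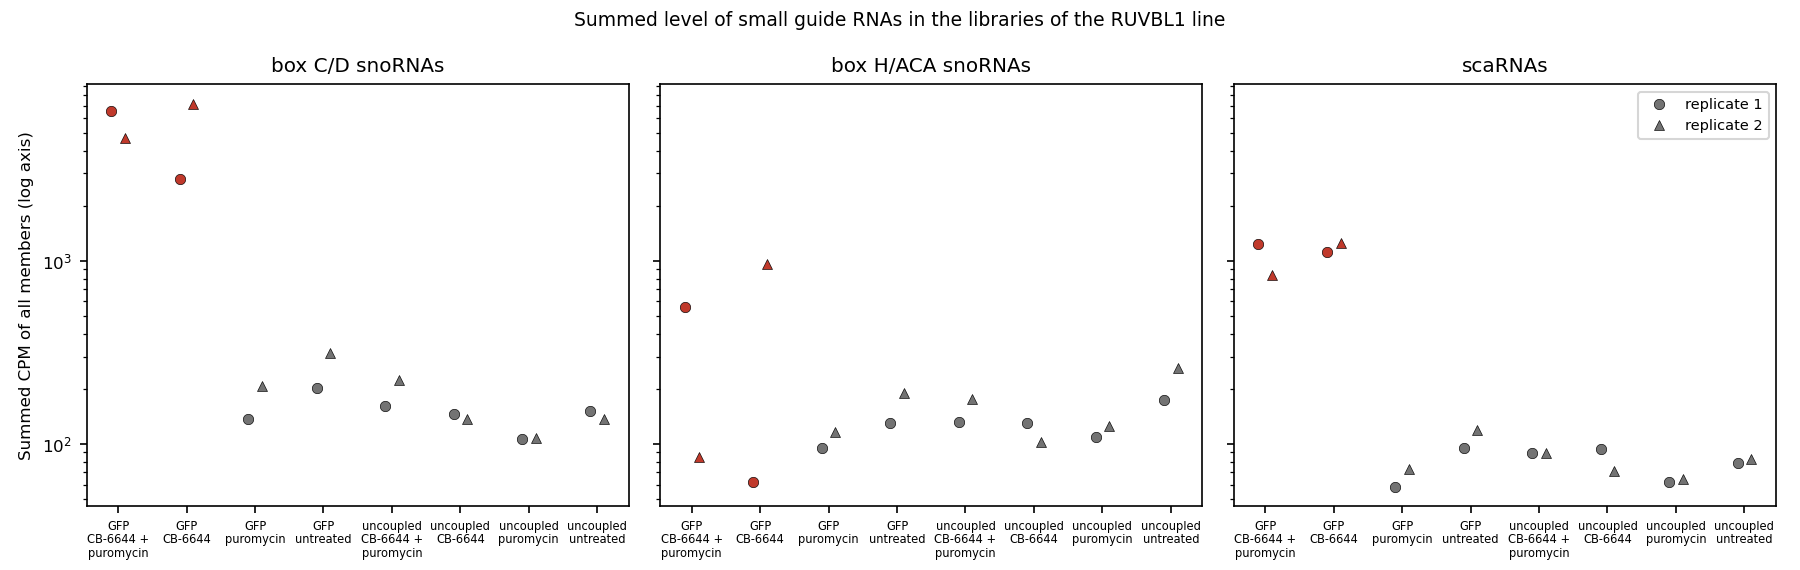
Summed CPM (log axis) of all box C/D snoRNAs, all box H/ACA snoRNAs and all scaRNAs in each of the 16 RUVBL1 libraries, by bead and treatment; circles are replicate 1, triangles replicate 2, and red marks GFP beads after CB-6644. Box C/D snoRNAs and scaRNAs are high in all 4 red libraries, whereas box H/ACA snoRNAs are high in 1 red library of each pair, at 956 and 557 CPM.

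Most of these small RNAs are cut from introns of longer genes. Of 230 small RNAs tested, 195 lay within exactly 1 tested gene (strand not considered). The 116 genes that span them had a median of -0.14. None was called higher and 1 was called lower (EP400, which spans a box H/ACA snoRNA). RPS3, a ribosomal protein gene that spans SNORD15B, had a change of -0.98 ± 0.46 (adjusted p = 0.418). Short RNAs are in part lost on RNA purification columns, and reads placed in more than 1 copy of a family may be split, so levels of single members are uncertain.

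The mRNAs that rose included 4 of the 7 genes listed for proteins with a domain that reads the C-terminal domain (CTD) of RNA polymerase II. The CTD is the repeated tail of the largest polymerase II subunit, and these proteins act in transcription termination, splicing and 3′ end formation. The list had been drawn up with earlier results of these data known, so its count is not independent evidence of a direction. Its median change was 2.02, against 0.04 over all genes tested, of which 0.138% were called higher. CHERP, SCAF4, SCAF8 and RPRD2 rose. PCF11, RPRD1A and RPRD1B had changes of 0.13, -0.38 and -0.0015, none of which passed.

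CHERP, an endoplasmic reticulum and splicing-associated protein with such a domain (19:16517894-16542437), was at 2947 and 1439 CPM on GFP beads after CB-6644, 98.4 and 103 CPM on uncoupled beads after CB-6644, 232 and 171 CPM on untreated GFP beads, and 139 and 83.7 CPM on untreated uncoupled beads. Both CB-6644 GFP libraries exceeded the other 6. Its enrichment was 4.44 ± 0.34 after CB-6644 and 0.85 ± 0.30 in untreated cells, where it was not called (adjusted p = 0.237). The ratio rose 12.0-fold (3.59 ± 0.43, adjusted p = 7.45e-05).

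SCAF4 (21:31671000-31732118) and SCAF8 (6:154733378-154834244) are paralogs that prevent early termination of polymerase II transcripts. SCAF4 was at 3510 and 1477 CPM on GFP beads after CB-6644, 46.3 and 45.9 CPM on uncoupled beads after CB-6644, 356 and 194 CPM on untreated GFP beads, and 54.5 and 36.7 CPM on untreated uncoupled beads. SCAF8 was at 1376 and 580.0 CPM on GFP beads after CB-6644, 45.8 and 48.2 CPM on uncoupled beads after CB-6644, 148 and 97.6 CPM on untreated GFP beads, and 47.2 and 37.9 CPM on untreated uncoupled beads. Both were already enriched in untreated cells, by 2.59 ± 0.35 (adjusted p = 0.000245) and 1.53 ± 0.30 (adjusted p = 0.0107). CB-6644 raised these ratios a further 9.01-fold and 7.21-fold (3.17 ± 0.48, adjusted p = 0.0014, and 2.85 ± 0.43, adjusted p = 0.00128).

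RPRD2, a relative of the CTD-binding RPRD1 proteins, was at 248 and 145 CPM on GFP beads after CB-6644, 47.4 and 48.8 CPM on uncoupled beads after CB-6644, 58.4 and 43.1 CPM on untreated GFP beads, and 50.5 and 50.1 CPM on untreated uncoupled beads. The other 6 libraries did not differ by bead or treatment in any visible way, and the rise was 2.02 ± 0.35 (adjusted p = 0.00582). It just missed the threshold without CB-6644 uncoupled replicate 1 (adjusted p = 0.0505). PCF11, a cleavage factor of the same list, differed. It was at 1117 and 808 CPM on GFP beads after CB-6644, 65.7 and 64.6 CPM on uncoupled beads after CB-6644, 1482 and 519 CPM on untreated GFP beads, and 70.8 and 77.1 CPM on untreated uncoupled beads. It was enriched under both conditions, by 3.88 ± 0.36 and 3.76 ± 0.36, with a difference of 0.13 ± 0.46 (adjusted p = 0.931).

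WASHC2A and WASHC2C encode near-identical subunits of the WASH complex, which promotes actin assembly on endosomes, so reads may be split between them and the pair may be counted as 1 finding. WASHC2C was at 161 and 103 CPM on GFP beads after CB-6644, 17.4 and 17.0 CPM on uncoupled beads after CB-6644, 23.5 and 18.7 CPM on untreated GFP beads, and 21.9 and 12.9 CPM on untreated uncoupled beads. WASHC2A was at 177 and 110.0 CPM on GFP beads after CB-6644, 20.5 and 14.9 CPM on uncoupled beads after CB-6644, 20.1 and 22.0 CPM on untreated GFP beads, and 17.1 and 12.9 CPM on untreated uncoupled beads. Both rose, by 2.67 ± 0.36 (adjusted p = 0.000388) and 2.54 ± 0.36 (adjusted p = 0.00082), with no called enrichment in untreated cells.

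CHTOP, a chromatin and mRNA export factor, was at 174.5 and 95.8 CPM on GFP beads after CB-6644, 44.3 and 47.8 CPM on uncoupled beads after CB-6644, 48.3 and 42.5 CPM on untreated GFP beads, and 51.8 and 48.9 CPM on untreated uncoupled beads (1.70 ± 0.33, adjusted p = 0.0192). NIN, a centrosomal protein that anchors microtubules, was at 214 and 136 CPM on GFP beads after CB-6644, 89.0 and 87.4 CPM on uncoupled beads after CB-6644, 77.0 and 77.5 CPM on untreated GFP beads, and 124 and 101 CPM on untreated uncoupled beads (1.53 ± 0.32, adjusted p = 0.0389). Both were highest in the CB-6644 GFP libraries, but each lost its call without any 1 of 5 libraries, namely both untreated GFP, untreated uncoupled replicate 1 and both CB-6644 uncoupled libraries (adjusted p = 0.0626 to 0.167 for CHTOP and 0.139 to 0.285 for NIN).

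The mRNAs that fell were led by clients and partners of RUVBL1/2 that were strongly recovered in untreated cells. Because enrichment in untreated cells is subtracted in the change, a called loss favours genes recovered strongly there. PRPF8 (17:1650629-1684867), which sits at the heart of the spliceosome in the U5 snRNP, was at 3519 and 1968 CPM on GFP beads after CB-6644, 209 and 179.6 CPM on uncoupled beads after CB-6644, 22110 and 13860 CPM on untreated GFP beads, and 286 and 126 CPM on untreated uncoupled beads. The CB-6644 GFP libraries lay between the untreated GFP libraries and both uncoupled groups. Enrichment was 3.82 ± 0.40 after CB-6644 and 6.44 ± 0.45 in untreated cells, a 6.17-fold lower ratio (-2.63 ± 0.51, adjusted p = 0.0206). The call was lost without untreated GFP replicate 1 or CB-6644 uncoupled replicate 1 (adjusted p = 0.179 and 0.117). EFTUD2, the GTPase of the same particle, had a change of -1.99 ± 0.89 that did not pass (adjusted p = 0.425). It was at 249.7 and 132 CPM on GFP beads after CB-6644, 67.1 and 59.8 CPM on uncoupled beads after CB-6644, 1641 and 309 CPM on untreated GFP beads, and 105 and 57.6 CPM on untreated uncoupled beads, so its untreated GFP replicates were far apart. Of 18 U5 and U4/U6 snRNP proteins and assembly factors tested, PRPF8 was the only one called, and the median was -0.06. Over all genes tested 0.0501% were called lower.

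EP400 (12:131949942-132080460), the motor ATPase of the TIP60 complex, was at 1501 and 915 CPM on GFP beads after CB-6644, 183 and 113 CPM on uncoupled beads after CB-6644, 10960 and 7834 CPM on untreated GFP beads, and 194 and 84.1 CPM on untreated uncoupled beads. It too remained above the uncoupled beads after CB-6644, at 3.03 ± 0.38 against 6.07 ± 0.44 in untreated cells, an 8.25-fold lower ratio (-3.05 ± 0.51, adjusted p = 0.0044). BRD8, a bromodomain subunit of the same complex, was at 156 and 128 CPM on GFP beads after CB-6644, 57.9 and 50.7 CPM on uncoupled beads after CB-6644, 527 and 303 CPM on untreated GFP beads, and 52.3 and 38.2 CPM on untreated uncoupled beads (-1.81 ± 0.35, adjusted p = 0.0186). The BRD8 call was lost without untreated GFP replicate 1 or CB-6644 uncoupled replicate 1 (adjusted p = 0.243 and 0.13).

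The motor subunits of the 2 related remodellers had changes in the same direction that did not pass. SRCAP was at 1586 and 1033 CPM on GFP beads after CB-6644, 154 and 127 CPM on uncoupled beads after CB-6644, 5067 and 3152 CPM on untreated GFP beads, and 199.9 and 82.6 CPM on untreated uncoupled beads (-1.64 ± 0.49, adjusted p = 0.226). On GFP beads alone the 2 groups of SRCAP did not overlap, as for 19.5% of all genes tested, which lay lower in both CB-6644 libraries. The lower SRCAP level after CB-6644 passed there (-1.65, adjusted p = 0.0165). INO80 was at 116 and 82.5 CPM on GFP beads after CB-6644, 61.6 and 55.0 CPM on uncoupled beads after CB-6644, 223 and 156.5 CPM on untreated GFP beads, and 65.7 and 37.9 CPM on untreated uncoupled beads (-1.10 ± 0.35, adjusted p = 0.268). Of 30 subunits of the INO80, SRCAP and TIP60 complexes tested, 2 fell and 0 rose, with a median of -0.11, near the median of all genes. Over all genes tested 0.0501% fell and 0.138% rose.

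Of the 6 largest subunits of RNA polymerases I, II and III, 5 had a change below 0 and 1 passed, POLR2B, with a median of -2.49. Over all genes tested 0.0501% were called lower. On GFP beads alone 4 of the 6 were called lower after CB-6644, against 0.457% of all genes tested. On uncoupled beads 0 of the 6 were called. POLR2B, the second-largest subunit of polymerase II (4:56978896-57031158), was at 136 and 116 CPM on GFP beads after CB-6644, 75.7 and 67.9 CPM on uncoupled beads after CB-6644, 1601 and 714 CPM on untreated GFP beads, and 125 and 69.0 CPM on untreated uncoupled beads. Its enrichment was 3.57 ± 0.33 in untreated cells and, after CB-6644, 0.81 ± 0.30, which was not called (adjusted p = 0.127), and the ratio fell 6.76-fold (-2.76 ± 0.43, adjusted p = 0.00199). POLR2A, the largest subunit, was at 1484 and 1001 CPM on GFP beads after CB-6644, 489 and 381 CPM on uncoupled beads after CB-6644, 11750 and 3349 CPM on untreated GFP beads, and 477 and 205.5 CPM on untreated uncoupled beads. The 2 treatments did not overlap on GFP beads, where 19.5% of all genes tested had both CB-6644 libraries below both untreated ones. The POLR2A change of -2.95 ± 0.63 did not pass (adjusted p = 0.0787). POLR1A was at 162 and 139.7 CPM on GFP beads after CB-6644, 67.4 and 62.5 CPM on uncoupled beads after CB-6644, 1585 and 587.5 CPM on untreated GFP beads, and 106 and 38.1 CPM on untreated uncoupled beads (-2.68 ± 0.61, adjusted p = 0.131). POLR3A was at 63.3 and 54.7 CPM on GFP beads after CB-6644, 33.9 and 34.8 CPM on uncoupled beads after CB-6644, 433 and 124 CPM on untreated GFP beads, and 39.6 and 26.3 CPM on untreated uncoupled beads (-2.29 ± 0.56, adjusted p = 0.166). POLR1B and POLR3B, the second-largest subunits of polymerases I and III, had -0.41 and 0.42. The 30 other polymerase subunits and assembly factors had 0 calls and a median of -0.38.

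The remaining losses ended near the level of the uncoupled beads. SCAMP5, a secretory carrier membrane protein, was at 16.0 and 10.3 CPM on GFP beads after CB-6644, 16.3 and 20.8 CPM on uncoupled beads after CB-6644, 50.4 and 54.7 CPM on untreated GFP beads, and 14.6 and 19.9 CPM on untreated uncoupled beads (-2.10 ± 0.37, adjusted p = 0.00795). SYT17, a synaptotagmin, was at 17.5 and 15.6 CPM on GFP beads after CB-6644, 17.8 and 17.2 CPM on uncoupled beads after CB-6644, 57.1 and 56.7 CPM on untreated GFP beads, and 11.2 and 19.1 CPM on untreated uncoupled beads (-2.004 ± 0.38, adjusted p = 0.0175). TRIM13, an endoplasmic reticulum ubiquitin ligase, was at 28.9 and 19.9 CPM on GFP beads after CB-6644, 26.0 and 19.4 CPM on uncoupled beads after CB-6644, 122 and 89.0 CPM on untreated GFP beads, and 26.8 and 22.3 CPM on untreated uncoupled beads (-1.99 ± 0.34, adjusted p = 0.00572). These 3 were high in the untreated GFP libraries only. CREB3, a membrane-bound transcription factor of the endoplasmic reticulum, was at 38.5 and 25.9 CPM on GFP beads after CB-6644, 36.2 and 34.3 CPM on uncoupled beads after CB-6644, 96.1 and 77.4 CPM on untreated GFP beads, and 31.7 and 30.7 CPM on untreated uncoupled beads (-1.60 ± 0.33, adjusted p = 0.0328). Each of the 4 lost its call without 1 of 2 to 4 libraries. The adjusted p was 0.0636 for SCAMP5 without untreated uncoupled replicate 1 and 0.0598 without CB-6644 uncoupled replicate 2. For SYT17 it was 0.0549 to 0.122 without untreated GFP replicate 1, untreated uncoupled replicate 1 or CB-6644 uncoupled replicate 1. For TRIM13 it was 0.0602 and 0.066 without untreated GFP replicate 1 or CB-6644 uncoupled replicate 1, and for CREB3 0.0879 to 0.243 without either of the same libraries, untreated uncoupled replicate 1 or CB-6644 uncoupled replicate 2.

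**Figure D3:**
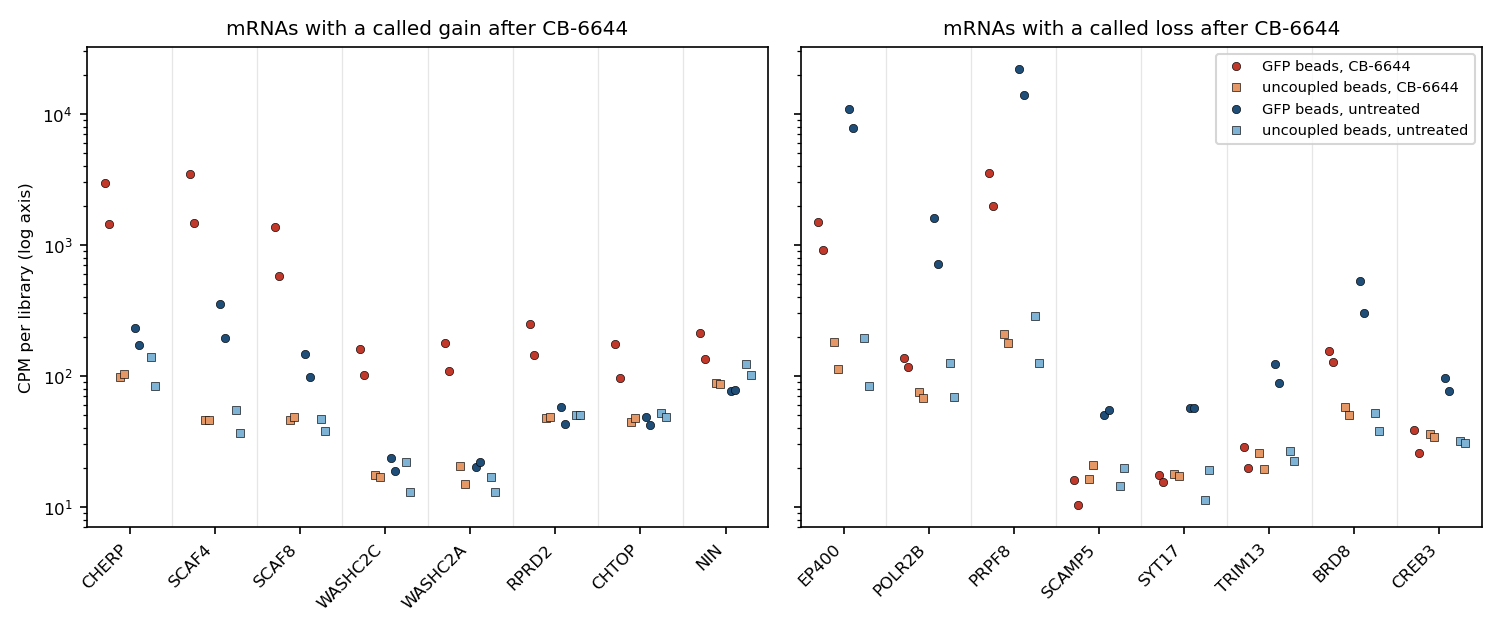
CPM (log axis) of the 8 mRNAs with a called gain (left) and the 8 with a called loss (right) in each library of the contrast; circles are GFP beads and squares uncoupled beads, with red and orange after CB-6644 and dark and light blue from untreated cells. On the left both red circles lie above the other 6 points, as for CHERP at 2947 and 1439 CPM, and on the right both lie below the dark blue circles, as for PRPF8 at 3519 and 1968 against 22110 and 13860 CPM.

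All 30 called genes had CB-6644 GFP libraries that lay both above or both below the 2 untreated GFP libraries. Over all genes tested 16.7% lay both above and 19.5% both below, so this pattern alone is common and its count shows nothing about the called genes.

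Enrichment in untreated cells and after CB-6644 were also set side by side, sharing no library with each other but both entering the change. After CB-6644, 387 genes passed (2.42% of those tested), 298 higher on GFP beads (1.87%) and 89 lower (0.557%). In untreated cells 149 passed (0.933%), 146 higher (0.914%) and 3 lower (0.0188%). GOLGA4, a golgin of the trans-Golgi network and among the 10 most enriched in untreated cells, was at 3227 and 1306 CPM on GFP beads after CB-6644, 162 and 141 CPM on uncoupled beads after CB-6644, 3454 and 2692 CPM on untreated GFP beads, and 194 and 126 CPM on untreated uncoupled beads. Its enrichment of 3.90 ± 0.38 and 4.26 ± 0.38 differed by -0.36 ± 0.48 (adjusted p = 0.784). That estimate was 0.14 without CB-6644 GFP replicate 2 and -1.17 without CB-6644 GFP replicate 1, so it depended on which library was kept. In the fit to all 16 libraries, strong recovery in untreated cells was not followed by a called loss for PCF11 and GOLGA4, unlike PRPF8 and EP400.

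**Figure D4:**
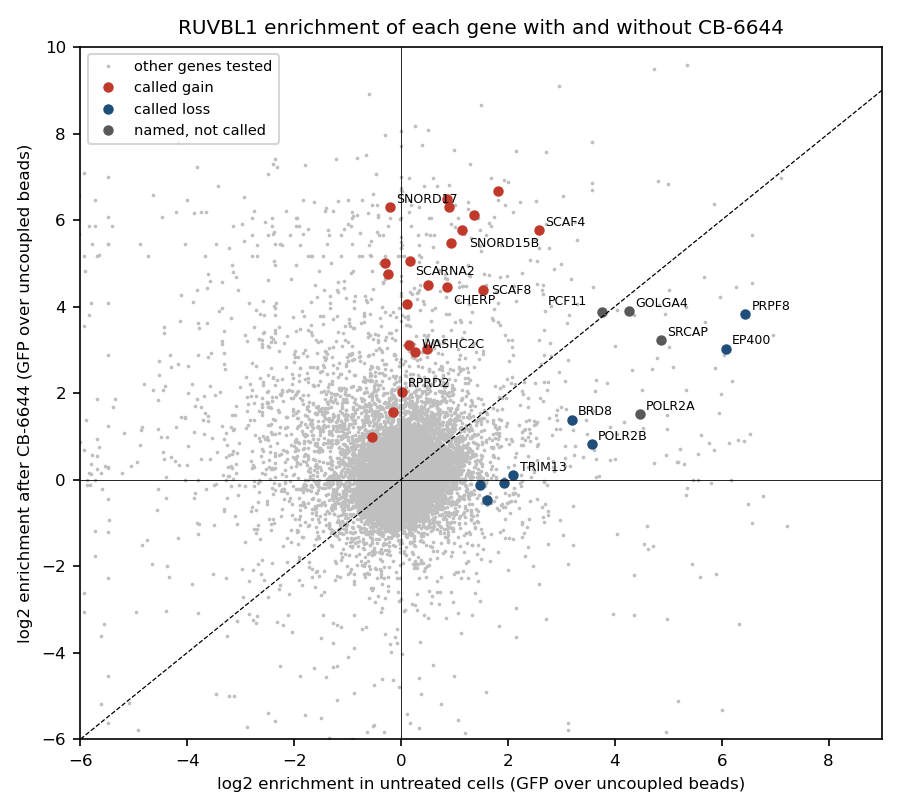
Log2 ratio of GFP to uncoupled beads in untreated cells (horizontal) and after CB-6644 (vertical) for the genes tested, with called gains in red, called losses in blue and 4 named genes that were not called in dark grey; the dashed line marks equal enrichment, SNORD135 is left out because a group was at 0, and genes beyond the axes are not drawn. Gains sit above the line, mostly near 0 on the horizontal axis, and PRPF8 (6.44, 3.82) and EP400 (6.07, 3.03) sit below it.

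The 8 libraries with puromycin gave the same contrast from other libraries, although both contrasts take their filter and their spread from 1 fit to all 16. There CB-6644 changed enrichment of 17 genes (0.106% of those tested), 12 higher (0.0751%) and 5 lower (0.0313%), and 1359 at an unadjusted p under 0.05. That balance was not stable, since losses outnumbered gains with the contrast's libraries alone (92 higher and 290 lower), by voom (84 and 354), by DESeq2 (33 and 76), with all 24 libraries (23 and 63) and with no filter on low counts (59 and 86). Among the small RNAs, all 14 had a change above 0 under puromycin and 7 were called, with a median of 4.06 under puromycin and 4.86 without it. The 14 had been chosen by their change without puromycin. Of the 9 box C/D snoRNAs among them, 8 would have passed the filter without any GFP library after CB-6644. An RNA that passes only through those libraries is favoured to have a change above 0. SNORD15B was at 2712 and 1933 CPM on GFP beads after CB-6644 with puromycin, 20.9 and 37.8 CPM on uncoupled beads after both, 9.42 and 13.4 CPM on GFP beads with puromycin alone, and 7.25 and 4.18 CPM on uncoupled beads with puromycin alone (5.32 ± 0.52, adjusted p = 8.44e-06). SCARNA7 was at 104 and 106 CPM on GFP beads after both, 9.68 and 5.77 CPM on uncoupled beads after both, 5.402 and 5.33 CPM on GFP beads with puromycin alone, and 4.25 and 5.95 CPM on uncoupled beads with puromycin alone (3.68 ± 0.41, adjusted p = 2.93e-05). For both, the GFP libraries after CB-6644 were again far above the other 6. SCARNA28 had a change of 4.71 ± 0.35 under puromycin, against 2.96 ± 0.34 without it, a difference of 1.75 ± 0.47 that did not pass over all genes (adjusted p = 0.447).

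The summed levels said the same of the classes. Box C/D snoRNAs summed to 6582 and 4679 CPM on GFP beads after CB-6644 with puromycin, 161 and 224 CPM on uncoupled beads after both, 137 and 206 CPM on GFP beads with puromycin alone, and 106.5 and 108 CPM on uncoupled beads with puromycin alone. scaRNAs summed to 1233 and 835 CPM on GFP beads after both. Box H/ACA snoRNAs summed to 557 and 85.2 CPM on GFP beads after both, high only in the library that stood apart on the first component. Of the 88 box C/D snoRNAs that could pass without a CB-6644 GFP library, 80 had a change above 0 under puromycin and 8 were called, with a median of 3.06. Over all genes tested 0.0751% were called higher under puromycin.

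The mRNAs that rose with CB-6644 did not pass under puromycin. Of 8, 0 were called and 6 had a change above 0, with a median of 0.17 under puromycin and 2.61 without it. CHERP was at 156 and 157 CPM on GFP beads after CB-6644 with puromycin, 112.5 and 133 CPM on uncoupled beads after both, 165 and 187 CPM on GFP beads with puromycin alone, and 109 and 113 CPM on uncoupled beads with puromycin alone. Its change was -0.32 ± 0.42 under puromycin and 3.59 ± 0.43 without it, a difference of -3.90 ± 0.60, the only one of 15976 genes whose difference passed (0.00626%, adjusted p = 0.0194, with 1246 at an unadjusted p under 0.05). That call was lost without any 1 of 7 of the 16 libraries (adjusted p = 0.0554 to 0.104), namely both GFP and both uncoupled libraries with puromycin alone, untreated uncoupled replicate 1, CB-6644 uncoupled replicate 2 and uncoupled replicate 2 after both. SCAF4 was at 80.0 and 69.6 CPM on GFP beads after both, 50.1 and 54.4 CPM on uncoupled beads after both, 50.9 and 46.6 CPM on GFP beads with puromycin alone, and 47.5 and 41.5 CPM on uncoupled beads with puromycin alone. Its change was 0.39 ± 0.47, a difference of -2.79 ± 0.66 that did not pass over all genes (adjusted p = 0.447). For 7 of the 8 mRNAs the difference had an unadjusted p under 0.05, as for 1246 of the 15976 genes tested. The 8 were chosen by their change without puromycin, which enters the difference. Their medians and this count are thus a description only.

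The mRNAs that fell did not pass under puromycin either. Of 8, 0 were called and 7 had a change below 0, with a median of -0.82 under puromycin and -2.05 without it. PRPF8 was at 468 and 532 CPM on GFP beads after CB-6644 with puromycin, 252 and 237 CPM on uncoupled beads after both, 585 and 718 CPM on GFP beads with puromycin alone, and 209 and 205 CPM on uncoupled beads with puromycin alone (-0.62 ± 0.50, adjusted p = 0.816). EP400 was at 268 and 211 CPM on GFP beads after both, 157 and 127 CPM on uncoupled beads after both, 260.6 and 219 CPM on GFP beads with puromycin alone, and 103 and 109.6 CPM on uncoupled beads with puromycin alone (-0.42 ± 0.50, adjusted p = 0.886). Both had GFP levels under puromycin far below those of untreated cells, with CB-6644 or without it. The differences between the 2 contrasts had an unadjusted p under 0.05 for 4 of the 8, and none passed over all genes. These 8 too were chosen by their change without puromycin, so their medians and this count are a description only.

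**Figure D5:**
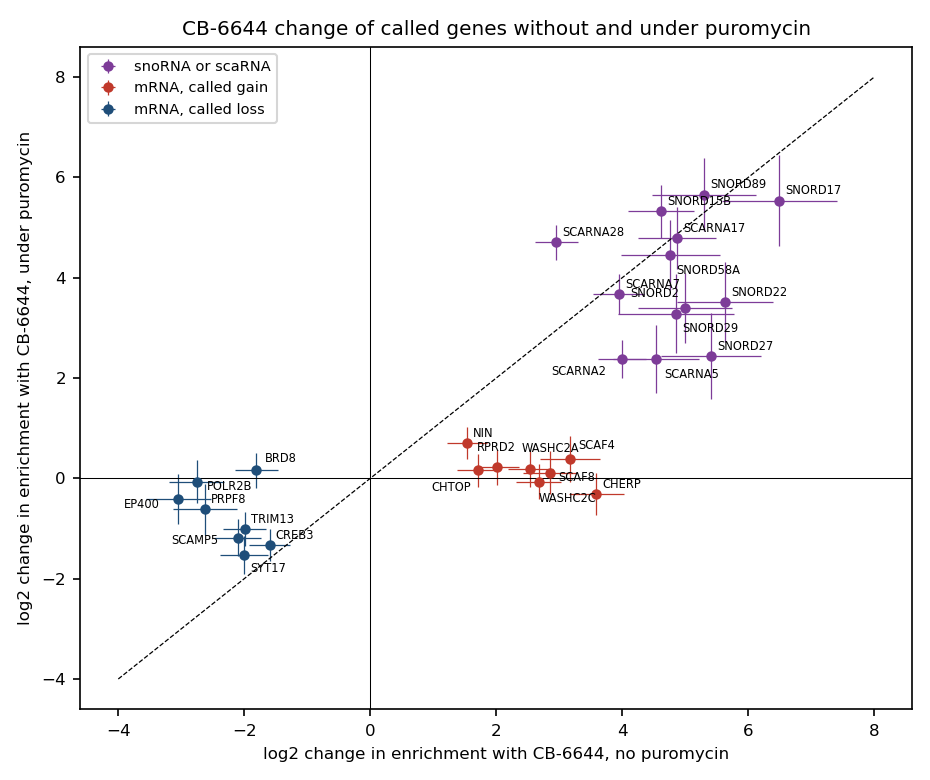
CB-6644 change in RUVBL1 enrichment (log2) without puromycin (horizontal) and under puromycin (vertical) for the called genes other than SNORD135; bars are SEs from the fit to 16 libraries, the dashed line marks equal changes, and the axes contrast different libraries. Small RNAs (purple) lie between 2.38 and 5.66 on the vertical axis, mRNAs with a gain (red) between -0.32 and 0.70, and mRNAs with a loss (blue) between -1.53 and 0.16.

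The tagged protein's own mRNA and those of its partners were not called. RUVBL1 was at 88.3 and 60.7 CPM on GFP beads after CB-6644, 66.1 and 66.0 CPM on uncoupled beads after CB-6644, 197 and 90.8 CPM on untreated GFP beads, and 93.5 and 41.8 CPM on untreated uncoupled beads (-0.90 ± 0.47, adjusted p = 0.454). RUVBL2 had a change of -0.43 ± 0.36 (adjusted p = 0.631). RPAP3, the scaffold of R2TP, was at 339 and 139.7 CPM on GFP beads after CB-6644, 43.5 and 39.9 CPM on uncoupled beads after CB-6644, 110.4 and 40.8 CPM on untreated GFP beads, and 44.5 and 32.3 CPM on untreated uncoupled beads. It was enriched after CB-6644 (2.52 ± 0.45, adjusted p = 0.0139) and not called in untreated cells (0.97 ± 0.43), but the change of 1.55 ± 0.60 did not pass (adjusted p = 0.365). Of 11 R2TP and prefoldin-like subunits tested, 0 were called, with a median of -0.30. SMG1, which phosphorylates UPF1 in nonsense-mediated decay and belongs to the PIKK kinases, was at 238 and 231 CPM on GFP beads after CB-6644, 137 and 99.2 CPM on uncoupled beads after CB-6644, 645 and 557 CPM on untreated GFP beads, and 148.5 and 82.5 CPM on untreated uncoupled beads (-1.39 ± 0.40, adjusted p = 0.213), and 0 of 9 PIKK kinases and TTT subunits were called.

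Genes found with RPAP3 in untreated cells, in libraries that this comparison does not use, split in both directions. RPAP3 enrichment was called higher for 233 of 15202 genes (1.53%) and lower for 1 (0.00658%). Of the 233, 4 rose and 4 fell with CB-6644, against 0.138% and 0.0501% of all genes tested, and the median change was 0.47. Of the 20 with the largest RPAP3 enrichment, 3 rose (CHERP, SCAF4 and SCAF8) and 3 fell (PRPF8, EP400 and POLR2B), with a median of -0.39. These 20 had a mean of at least 5 CPM over the untreated libraries of both lines. That filter thus used the untreated RUVBL1 libraries of the contrast. The 146 genes enriched with RUVBL1 in untreated cells share those libraries with the change, which then tends below 0, and their median of -0.76 with 2 gains and 8 losses is given as a description only.

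Other lists held 0 calls. The 35 very long cytosolic and nuclear proteins all had a change above 0, with a median of 0.98, but not one passed. Of all 15976 genes tested, 8311 had a change above 0. DST and MYH9 were named after their values were seen. DST, a giant spectraplakin that links cytoskeletal filaments, was at 506 and 665 CPM on GFP beads after CB-6644, 329 and 170.5 CPM on uncoupled beads after CB-6644, 180.0 and 223 CPM on untreated GFP beads, and 345 and 153 CPM on untreated uncoupled beads (1.54 ± 0.53, adjusted p = 0.285). MYH9, a non-muscle myosin heavy chain, had 1.13 ± 0.39 (adjusted p = 0.282). The median of the 35 was 0.82 without CB-6644 GFP replicate 2, 1.43 without untreated uncoupled replicate 2 and 1.24 without both. Some of the 35 were called once untreated uncoupled replicate 2 was left out. Their median under puromycin was -0.11. The 85 cytosolic ribosomal protein mRNAs had 0 calls, 13 changes above 0 and a median of -0.60, which was 0.37 under puromycin. That median was -0.30 without CB-6644 GFP replicate 2, -0.94 without untreated uncoupled replicate 2 and -0.61 without both. The 49 replication-dependent histones had 0 calls and a median of -0.47, which was -0.04 without CB-6644 GFP replicate 2 and -0.37 without untreated uncoupled replicate 2. HSP90 and HSP70 chaperones (24 tested), the CCT chaperonin and prefoldin (14), the proteasome (31), endoplasmic reticulum chaperones (17), eIF3 subunits (12), p53 targets (22), golgins (12), ATF4 with its targets (19), mitotic genes (25), immediate early genes (20), snoRNP core proteins and assembly factors (14), snoRNA host genes (17) and other structured or nuclear non-coding RNAs (20) likewise had 0 calls, with medians between -0.54 and 0.72. The lowest, of eIF3, was -0.24 without CB-6644 GFP replicate 2, and the highest, of the other non-coding RNAs, turned to -0.71. Without untreated uncoupled replicate 2 they were -0.53 and 0.46. With both libraries that stood apart left out, the medians of the lists just named lay between -1.07, of the other non-coding RNAs, and 0.80, of mitotic genes. The proteasome median turned from -0.12 to 0.38, and that of all genes tested was -0.08. Some members of these lists were called in that fit, in both directions. It kept 1 library in each group that lost one, so it gives no sound count.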

How the data were processed

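RNA recovered on GFP and uncoupled beads was made into libraries with a SMART-Seq Stranded kit, as the labels' protocols state. The deposited table holds raw read counts per gene. The submitters' processing notes name TopHat2 2.1.1, featureCounts 2.0.3 and hg38, besides FastQC 0.11.9, MultiQC 1.12 and bcl2fastq 2.20.0.422. The strand setting, the treatment of multiply mapped reads and the annotation are not given in the sources used here. Of 27790 gene IDs, 27757 were found in the NCBI GRCh38.p14 table, which gave positions. 517 genes had no ID.

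All 16 RUVBL1 libraries (8 groups of 2, 8 residual degrees of freedom) were fitted with edgeR 4.0.16 in R 4.3.3 (filterByExpr, TMM, robust quasi-likelihood, Benjamini-Hochberg over all genes tested, called at an adjusted p under 0.05). SEs come from that pooled fit. RPAP3 libraries were fitted apart. On simulated data of 14992 genes, the CB-6644 change was called for 2 of 47 genes changed by log2 1, 18 of 46 by 2, 46 of 50 by 3 and 43 of 50 by 4, with 6 false calls. Every simulated gene had the same relative spread (0.263, the common value of the line), and no simulated library was made to stand apart. The recovery and the false calls are therefore not those of the real libraries. The fits, tests and medians used the counts as they were. Only for the separate value given for SNORD135 was a group with 0 counts set to 3 counts over the group. Alternatives included other scalings and filters, a replicate block, DESeq2 1.42.0, limma 3.58.1 voom and each library left out.

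Named genes were RUVBL1, RUVBL2 and RPAP3, up to 15 called genes per direction with at least 5 CPM, the 10 most enriched under each condition, the 20 most enriched with RPAP3, the 5 called genes with the smallest p in each direction on each kind of bead, and up to 4 per gene list with the smallest p. Called genes under 5 CPM and other genes outside this rule were named after their values were seen. The comparison and the lists were chosen with earlier results of these data known.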

Additional observations from a re-analysis of the deposited data

Results flagged for a closer look

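The CB-6644 change of CHERP differed between the libraries with puromycin and those without it, by -3.905 ± 0.60 on the log2 scale (edgeR's quasi-likelihood test, adjusted p = 0.0194). It stands out because the difference itself was tested, and CHERP was the only gene of 15976 to pass. Over 26 alternatives the call was kept in 19, and the 7 in which it was lost each left out 1 library. With each of 16 single libraries left out the difference lay between -4.325 and -3.282, with adjusted p between 1.84e-06 and 0.104. The cause of the difference was not tested.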

How the results depend on the processing

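Of the 30 called genes, CHERP, WASHC2A, WASHC2C, SCARNA2, SCARNA7, SCARNA28 and SNORD15B were called in all 19 alternatives, SNORD2 in the 18 that tested it, and 0 changed sign. For the CB-6644 change in RUVBL1 enrichment (30 calls), upper-quartile scaling gave 35, total-count scaling 32 (27 higher and 5 lower, with the median of all genes at 0.30), no filter on low counts 284, all 24 libraries 112, the contrast's libraries alone 11, DESeq2 174, voom 18, and both libraries that stood apart left out 710 (added after seeing the data). Single libraries left out gave 20 to 1506. On GFP beads (174 calls) no filter gave 544, all 24 libraries 509, the contrast's libraries alone 15, DESeq2 477 and voom 78, and single libraries left out gave 49 to 1898. On uncoupled beads (0 calls) no filter gave 17 and DESeq2 7, and single libraries left out gave 0 to 2. For enrichment after CB-6644 (387 calls) total-count scaling gave 818, no filter 1464, all 24 libraries 1533, the contrast's libraries alone 12 and DESeq2 1392, and single libraries left out gave 53 to 3554. For enrichment in untreated cells (149 calls) these were 317 without the filter, 408 with all 24 libraries, 70 with the contrast's libraries alone, 367 by DESeq2 and 99 by voom, and 43 to 193 with single libraries left out. Under puromycin (17 calls) no filter gave 145, no robust dispersion 28, all 24 libraries 86, the contrast's libraries alone 382, DESeq2 109 and voom 438, and single libraries left out gave 7 to 24. For the difference between puromycin and no puromycin (1 call) no filter gave 75, all 24 libraries 11, DESeq2 17, voom 4 and the GFP libraries highest on the first component left out 5 (added after seeing the data), and single libraries left out gave 0 to 911. RPAP3 enrichment (234 calls) had 57 with all 24 libraries and 118 to 403 with single libraries left out. Replicate numbers were not shown to pair the samples, with correlations of deviations from -0.053 to 0.27, and with a replicate block the counts were 53 for the CB-6644 change (29 shared with the 30), 272 on GFP beads and 27 under puromycin. Some changes that were not called turned sign. With single libraries left out, GOLGA4 lay between -1.174 and 0.1407, PCF11 between -0.4512 and 1.065, POLR1B between -0.8332 and 0.151, POLR3B between -0.01255 and 0.72, SNORA73A between -0.722 and 4.433 and SNORA73B between -1.88 and 3.499. Without both libraries that stood apart, POLR1B was at 0.07867, GOLGA4 at 0.4295, RUVBL2 at 0.1068, SNORA73A at -0.5038 and SNORA73B at -1.612. The causes were not tested.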
